A study of Mus musculus with 10 samples.

Results

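Trp53 codes for the mouse tumour suppressor p53, and 8 of the genes that p53 is known to activate were examined beside it in pancreatic tumours. The 9 genes were taken by name from 23924 usable gene symbols: Trp53, Mdm2, Ccng1, Zmat3, Trp53inp1, Phlda3, Sesn1, Sesn2 and Eda2r. All 9 were listed in both tables and passed the filter on low values in both models. RNA was sequenced from tumours of 2 models, named KrasT and MycT, grown in the pancreas of athymic nude hosts, whose missing thymus leaves them short of T cells. The tumour groups were 3 KrasT with doxycycline, 3 KrasT untreated, 2 MycT with doxycycline and 2 MycT untreated, 10 libraries in all. Doxycycline, a drug that switches tetracycline-controlled transgenes, was given for 2 weeks at 100 ug/ml in drinking water that held 2.5% sucrose. The study's title speaks of tumour dormancy without oncogenic drivers, which is not taken here as a description of the untreated tumours.

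How the transgenes are built, which promoter drives them, what Trp53 alleles the tumour cells carry and how old the mice were is not stated in the labels. Sucrose is not named for untreated mice, so effects of doxycycline or sucrose themselves cannot be told apart from those of a switched transgene. Each library came from whole tumour tissue of 1 animal. The p-values rest on the spread between these tumours, which the test, limma, draws toward that of other genes at a similar level.

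p53 is a transcription factor held at a low level by Mdm2, a ubiquitin ligase that marks it for destruction. After DNA damage or oncogene stress p53 escapes Mdm2 and activates genes that stop the cell cycle, repair damage or kill the cell, and Mdm2 is itself one of these genes, which closes a feedback loop. Since p53 is controlled mostly as a protein, its mRNA level does not measure its activity, and the levels of its targets are often read in its place.

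Promoter windows of Mdm2, Ccng1 and Sesn1 that hold a p53 motif are shown for reference, with the motif in capitals. Windows run from 250 bases before to 50 bases after an annotated start and come from RefSeq for build GRCm38.p6, whereas the authors' build is mm9. They were found for 7 of the 9 genes, all but Zmat3 and Trp53inp1. The first is Mdm2 on the minus strand at chr10:117710709-117711008, the second Ccng1 on the minus strand at chr11:40755237-40755536, and the other is the second annotated start of Sesn1 on the plus strand at chr10:41887189-41887488. They are written 5′ to 3′ on the gene's strand, and capitals mark a p53 consensus half-site of 10 bases or, in Ccng1, a pair of them side by side.
Mdm2: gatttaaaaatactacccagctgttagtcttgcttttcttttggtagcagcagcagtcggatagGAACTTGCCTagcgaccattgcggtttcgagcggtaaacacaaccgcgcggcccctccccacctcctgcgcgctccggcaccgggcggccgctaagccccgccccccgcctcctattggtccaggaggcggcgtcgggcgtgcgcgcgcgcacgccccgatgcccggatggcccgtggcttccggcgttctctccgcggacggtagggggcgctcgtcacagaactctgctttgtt
Ccng1: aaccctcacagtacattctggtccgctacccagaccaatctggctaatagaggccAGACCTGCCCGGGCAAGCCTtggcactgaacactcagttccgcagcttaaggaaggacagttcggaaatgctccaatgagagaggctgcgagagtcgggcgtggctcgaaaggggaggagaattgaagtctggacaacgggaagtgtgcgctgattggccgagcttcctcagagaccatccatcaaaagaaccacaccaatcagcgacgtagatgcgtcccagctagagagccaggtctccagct
Sesn1: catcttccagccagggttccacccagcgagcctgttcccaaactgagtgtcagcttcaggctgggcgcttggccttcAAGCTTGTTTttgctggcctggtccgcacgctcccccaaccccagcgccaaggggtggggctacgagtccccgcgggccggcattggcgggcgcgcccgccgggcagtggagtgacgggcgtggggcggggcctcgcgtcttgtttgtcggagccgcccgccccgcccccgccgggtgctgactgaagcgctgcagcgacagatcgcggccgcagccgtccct
The half-site reads the same on both strands as a pattern. It was found in windows of 4 of the 7 genes, Mdm2, Ccng1, Sesn1 and Trp53, against 9.55% of all 27025 genes in the table. The windows of Phlda3, Sesn2, Eda2r and the first annotated start of Sesn1 held none. The genes were listed as p53 and its known targets, so the comparison with all genes cannot be read as a result about them. Ccng1 alone of the 7 held a pair of half-sites with at most 2 mismatches, 1 in its case, against 0.392% of all genes. A match describes these letters and does not show that p53 binds there; the best known p53 sites of Mdm2 lie in the first intron of the gene, outside this window.

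Expression is given as FPKM, a fragment count per kilobase of gene and relative to all mapped fragments of the library. Total FPKM ran from 513949 to 569272 in doxycycline and 789672 to 1018970 in untreated KrasT libraries, and from 546008 to 557227 in doxycycline and 1126800 to 1517330 in untreated MycT libraries. Read totals are unknown. Depth relative to 1 library of each table spanned 0.756 to 1.188 in KrasT and 0.621 to 1.0 in MycT. It was estimated as the most frequent ratio of that library's value to the other's, among genes detected at very low values in both. Rn45s, the ribosomal RNA precursor, stood at 17238 FPKM in KrasT doxycycline replicate 1 and 20880 FPKM in MycT doxycycline replicate 2, against at most 2231 FPKM elsewhere. The labelled tumour tissue expressed all 8 epithelial markers in every library, though unevenly. Their sum was 278 to 1708 FPKM in doxycycline and 2356 to 18526 FPKM in untreated KrasT tumours, and 903 to 1837 FPKM in doxycycline and 496 to 1566 FPKM in untreated MycT tumours. In KrasT, untreated replicate 1 differed from the rest of its group, with keratin Krt7 at 7.10 FPKM against 3348 and 1258 FPKM.

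Summed markers of several cell types differed between doxycycline and untreated tumours in both models. The 8 fibroblast markers summed to 3802 to 9199 FPKM in doxycycline and 290 to 647 FPKM in untreated KrasT tumours, and to 1623 to 2379 FPKM in doxycycline and 35.5 to 415 FPKM in untreated MycT tumours. The 6 mitotic markers summed to 8.36 to 16.8 FPKM in doxycycline and 53.4 to 99.9 FPKM in untreated KrasT tumours, and to 13.5 to 54.9 FPKM in doxycycline and 334 to 461 FPKM in untreated MycT tumours. The 6 endothelial markers summed to 61.9 to 136 FPKM in doxycycline and 11.8 to 24.8 FPKM in untreated KrasT tumours, and to 51.7 to 95.8 FPKM in doxycycline and 6.90 to 28.4 FPKM in untreated MycT tumours. The 6 macrophage markers summed to 1273 to 3956 FPKM in doxycycline and 168 to 833 FPKM in untreated KrasT tumours, and to 2140 to 4556 FPKM in doxycycline and 1141 to 3067 FPKM in untreated MycT tumours. Fewer cells of a type and less RNA per cell cannot be told apart in such tissue, and the part of these shifts in the results on the p53 genes was not tested. The 4 adipocyte markers also separated by treatment, at 144 to 2761 FPKM in doxycycline and 12.8 to 51.5 FPKM in untreated KrasT tumours, and 406 to 1501 FPKM in doxycycline and 67.5 to 76.1 FPKM in untreated MycT tumours. The 5 islet markers summed to 39.4 to 7218 FPKM in doxycycline and 0.187 to 60.8 FPKM in untreated KrasT tumours, and to 18.7 to 677 FPKM in doxycycline and 0 to 1.41 FPKM in untreated MycT tumours. The 5 muscle markers summed to 33.9 to 3755 FPKM in doxycycline and 1.71 to 310 FPKM in untreated KrasT tumours, and to 5.84 to 4896 FPKM in doxycycline and 1.61 to 2.31 FPKM in untreated MycT tumours. Islet and muscle sums thus overlapped between the KrasT groups and did not between the MycT groups. Macrophage and epithelial sums overlapped between the MycT groups and did not between the KrasT groups. Acinar sums overlapped in both models, with 12277 FPKM in 1 KrasT doxycycline tumour. The acinar marker Amy2a5 was listed at 0 in both MycT groups and in untreated KrasT tumours.

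The first question is how the p53 genes differed between doxycycline and untreated KrasT tumours. After doxycycline Sesn1 rose about 5.67-fold and Mdm2 fell about 2.15-fold, by the ratio of group means. Ccng1 was also lower in every doxycycline tumour but missed the threshold, and Trp53 itself and the other 5 targets had overlapping groups. Of the 9 genes 2 passed the limma test, set beside 16.7% of all 12696 genes tested. Groups did not overlap for 3 of the 9, set beside 39.8% of all genes, and both shares, of so few genes, are near their background.

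Trp53 mRNA was at 36.3, 32.5 and 32.3 FPKM in the doxycycline tumours, against 26.4, 49.6 and 14.1 FPKM in the untreated tumours. The doxycycline tumours were close to each other and lay inside the range of the untreated ones, whose highest value was 3.53 times the lowest. The difference on the log2 scale was 0.33 ± 0.44 (SE, limma adjusted p = 0.634). Log2 changes throughout are of FPKM + 1, doxycycline minus untreated, and understate the change of low genes. The genome also holds a Trp53 pseudogene on chromosome 17, and rules for counting shared fragments were not given in the sources used here.

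Mdm2, the ligase of the feedback loop, was at 17.4, 16.5 and 16.4 FPKM in doxycycline tumours, against 45.1, 25.3 and 37.7 FPKM in untreated tumours. Every doxycycline value lay below every untreated one, and the doxycycline values were nearly equal. Mdm2 fell by 1.02 on the log2 scale (± 0.27 SE, limma adjusted p = 0.0479). The call sits at the threshold: it held without untreated replicate 1 (limma adjusted p = 0.0423) and was lost without any other single library (0.0593 to 0.197), while the change stayed between -1.25 and -0.84. The call also ended with no filter and with a spread without a trend (limma adjusted p = 0.0523 each), under median-ratio scaling (0.0733), under quantile normalization (0.153), and with each library summing to 1000000, a scaling chosen after seeing the data (change -0.35, 0.399).

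Ccng1 codes for cyclin G1, a cyclin that brings a phosphatase to Mdm2. It was at 28.2, 45.4 and 25.3 FPKM in doxycycline tumours, against 75.9, 53.6 and 55.7 FPKM in untreated tumours. The groups did not overlap, and replicate 2 was the highest of the doxycycline tumours. Muscle markers summed to 3755 FPKM in that tumour, against 33.9 and 211 FPKM in the other doxycycline tumours. They summed to 310 FPKM in untreated replicate 1, the highest untreated tumour for Ccng1, against 2.41 and 1.71 FPKM. The part of muscle in the Ccng1 values was not tested. Its log2 change of -0.91 ± 0.30 (SE) did not pass (limma adjusted p = 0.0810).

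Sesn1 and Sesn2 code for sestrins, stress proteins that restrain the growth kinase complex mTORC1; Sesn1 is also a known target of FoxO transcription factors. Sesn1 was at 31.7, 18.7 and 27.2 FPKM in doxycycline tumours, against 8.86, 1.49 and 3.32 FPKM in untreated tumours. The lowest doxycycline value was above the highest untreated value, which came from replicate 1, the library that stood apart. Sesn1 rose by 2.47 ± 0.52 on the log2 scale (SE, limma adjusted p = 0.0260), at the 97.3 percentile of all genes tested. The call held without untreated replicate 1 (limma adjusted p = 0.00382) and was lost without any other single library (0.0689 to 0.134), while the change stayed between 2.01 and 3.002.

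Sesn2 did not follow Sesn1. It was at 5.07, 2.06 and 2.15 FPKM in doxycycline tumours, against 1.34, 5.13 and 2.71 FPKM in untreated tumours. The groups overlapped fully, and 1 tumour of each group stood well above the others. Its log2 change was 0.05 ± 0.45 (SE, limma adjusted p = 0.956).

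Phlda3 codes for a small lipid-binding protein that competes with the kinase Akt at the membrane. It was the gene with the highest mean level of the 9 in KrasT, at 58.9, 44.5 and 56.0 FPKM in doxycycline tumours, against 191, 63.3 and 39.3 FPKM in untreated tumours. The untreated mean rested on replicate 1, and the untreated range enclosed all doxycycline values. Phlda3 had a log2 change of -0.56 ± 0.55 (SE, limma adjusted p = 0.516).

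Trp53inp1, a stress protein that aids p53 phosphorylation, was at 16.4, 15.1 and 12.3 FPKM in doxycycline tumours, against 14.3, 7.86 and 24.2 FPKM in untreated tumours. Zmat3, a zinc finger protein that binds RNA, was at 6.40, 2.85 and 4.61 FPKM in doxycycline tumours, against 3.60, 4.75 and 3.99 FPKM in untreated tumours. Both sets of groups overlapped, and log2 changes were 0.04 ± 0.40 and 0.09 ± 0.32 (SE), with limma adjusted p of 0.957 and 0.868. Zmat3 overlaps the lncRNA gene 4930429B21Rik in the annotation, and strand settings of the counting were not given in the sources used here.

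Eda2r, a receptor of the TNF receptor family that binds a form of ectodysplasin, was at 2.56, 4.99 and 2.48 FPKM in doxycycline tumours, against 4.21, 0.301 and 0.723 FPKM in untreated tumours. It was low throughout, and the untreated values were spread by 14.0-fold, with replicate 1 the highest. Its log2 change was 0.89 ± 0.55 (SE, limma adjusted p = 0.2998). Without untreated replicate 1 it was 1.49 and passed (limma adjusted p = 0.0183). Eda2r overlaps the pseudogene Gm18111 in the annotation.

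Untreated replicate 1 had the highest value of its group for 5 of the 8 targets: Mdm2, Ccng1, Phlda3, Sesn1 and Eda2r. Trp53 was highest in untreated replicate 2, and Trp53inp1 in untreated replicate 3. Among doxycycline tumours, replicate 1, the library with high Rn45s, had the highest value for 6 of the 8 targets. Without that library 0 of the 9 genes passed, with Mdm2 at -1.05 and Sesn1 at 2.31 (limma adjusted p = 0.128 and 0.0931). The share of all genes passing in that fit is not given here, so this count has no background.

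**Figure D1:**
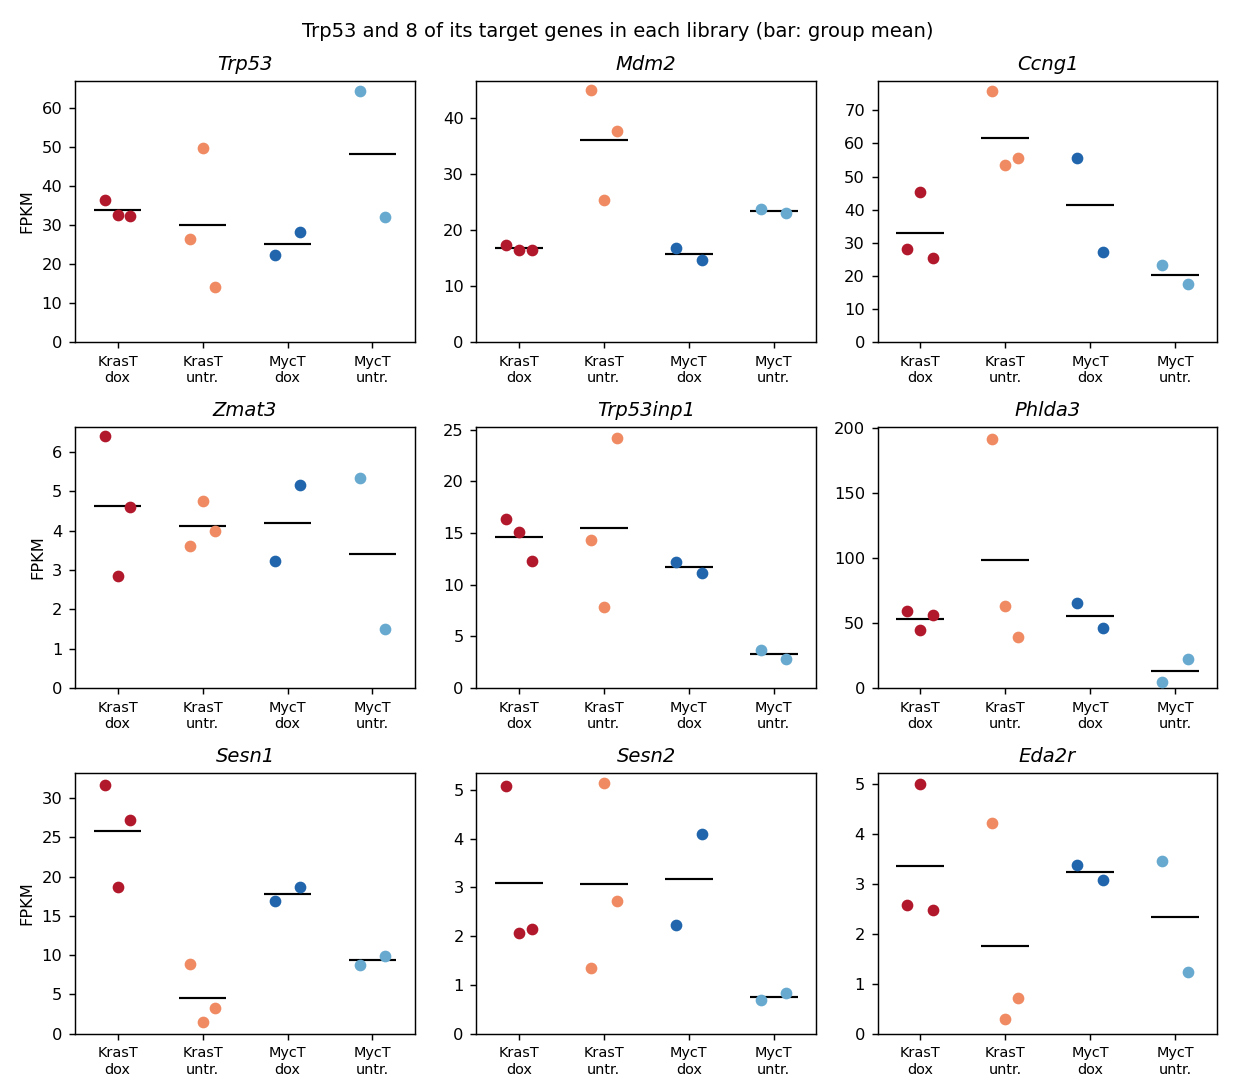
FPKM of Trp53 and 8 target genes in each of the 10 libraries, in 1 panel per gene with its own linear axis from 0. Points are tumours and bars are group means, with doxycycline left of untreated within each model; for Sesn1 all KrasT doxycycline points are at 18.7 FPKM or higher and all untreated points at 8.86 FPKM or lower, and for Mdm2 the order is reversed.

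MycT tumours, with 2 in each group, were compared in the same way. Phlda3, Sesn2, Trp53inp1, Ccng1 and Sesn1 were higher in both doxycycline tumours than in both untreated tumours, by 1.91-fold to 4.18-fold in group means, and Trp53 and Mdm2 were lower in both, with mean changes that turned positive when each library was scaled to a sum of 1000000. Limma called 0 of the 9 in the MycT fit, where 0.039% of all 12834 genes did; 4 of the 9 and 4284 of all genes had an unadjusted p under 0.05. A joint limma fit of all 10 libraries pools their spread; in it 1 of the 9 passed, Trp53inp1, set beside 20.4% of all genes. Groups without overlap were 7 of the 9, set beside 64.7% of all genes, a share that is near the background.

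Trp53 was at 22.4 and 28.1 FPKM in doxycycline tumours, against 64.3 and 31.9 FPKM in untreated tumours. Both untreated values were above both doxycycline values, but they differed by 2.02-fold from each other. The log2 change was -0.83 ± 0.45 (SE, limma adjusted p = 0.264).

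Mdm2 was at 16.8 and 14.7 FPKM in doxycycline tumours, against 23.8 and 23.2 FPKM in untreated tumours. The doxycycline values were close to those of KrasT doxycycline tumours, and the groups did not overlap. The log2 change was -0.55 ± 0.31 (SE, limma adjusted p = 0.277, joint fit 0.224). Under a sum of 1000000 the log2 changes of Trp53 and Mdm2 were 0.38 and 0.64.

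Trp53inp1 was at 12.2 and 11.2 FPKM in doxycycline tumours, against 3.66 and 2.82 FPKM in untreated tumours. Replicates lay close together in both groups, and the doxycycline mean was 3.61 times the untreated mean. The log2 change was 1.59 ± 0.33 (SE), which did not pass in the MycT fit (limma adjusted p = 0.0703) and did in the joint fit (0.0365).

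Phlda3 was at 64.9 and 46.0 FPKM in doxycycline tumours, against 4.59 and 21.9 FPKM in untreated tumours. It had the largest log2 change of the 9 in MycT, 2.30 ± 0.74 (SE), at the 96.0 percentile of all genes, where limma gave an adjusted p of 0.115 (joint fit 0.0642). Its untreated values were spread by 4.77-fold, and without the untreated tumour whose column has no replicate number the change was 3.31 and passed (limma adjusted p = 0.0395). That fit leaves 1 untreated tumour, which is assumed to vary like the doxycycline pair.

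Ccng1 was at 55.8 and 27.1 FPKM in doxycycline tumours, against 23.3 and 17.5 FPKM in untreated tumours. The groups did not overlap, with doxycycline replicate 1 the highest. The log2 change was 0.91 ± 0.46 (SE, limma adjusted p = 0.239, joint fit 0.147). Without doxycycline replicate 1 it was 0.41. Muscle markers summed to 4896 FPKM in doxycycline replicate 1 and 5.84 FPKM in doxycycline replicate 2, and their part in the Ccng1 values was not tested.

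Sesn1 was at 16.9 and 18.7 FPKM in doxycycline tumours, against 8.71 and 9.95 FPKM in untreated tumours. Sesn2 was at 2.23 and 4.10 FPKM in doxycycline tumours, against 0.685 and 0.829 FPKM in untreated tumours. Both sestrins were higher in both doxycycline tumours, with log2 changes of 0.86 ± 0.32 and 1.21 ± 0.39 (SE). Neither passed, with limma adjusted p of 0.140 and 0.113 (joint fit 0.293 and 0.120).

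Zmat3 was at 3.23 and 5.15 FPKM in doxycycline tumours, against 5.33 and 1.49 FPKM in untreated tumours. Eda2r was at 3.37 and 3.08 FPKM in doxycycline tumours, against 3.45 and 1.23 FPKM in untreated tumours. For both genes the doxycycline values lay within the untreated range, and log2 changes were 0.36 ± 0.57 and 0.42 ± 0.46 (SE, limma adjusted p = 0.692 and 0.555).

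Scaling each library to a sum of 1000000, chosen after seeing the data, moved the median log2 change of all genes by 1.04 in MycT and 0.63 in KrasT. Under it 4060 of all 12834 genes passed in MycT, 3833 of them higher. Of the 9 genes Phlda3, Trp53inp1, Ccng1, Sesn2 and Sesn1 passed under it in MycT (limma adjusted p of 0.0200 to 0.0319). Relative to the median of all genes these 5 changes were 0.95 to 2.42 under it and 0.82 to 2.26 in FPKM as deposited, and Trp53 and Mdm2 stood below the median under both. In KrasT, Mdm2 stood at -0.88 and Sesn1 at 2.67 relative to that median, against -0.92 and 2.57 in FPKM as deposited.

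**Figure D2:**
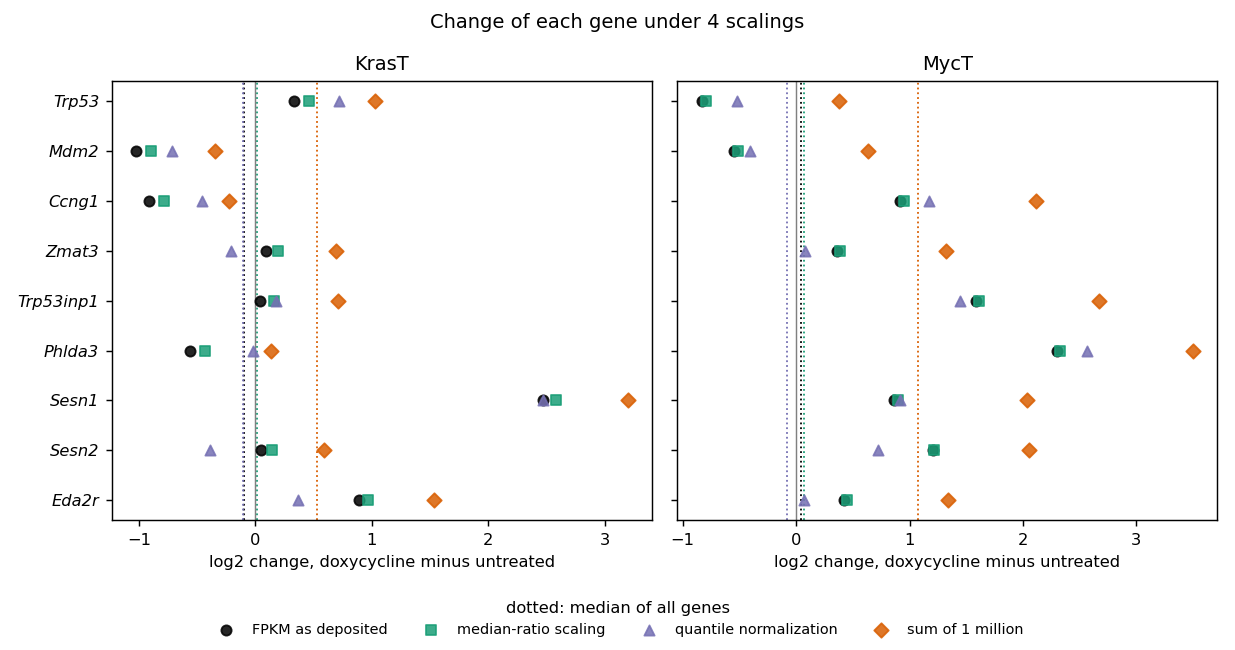
Log2 change, doxycycline minus untreated, of each gene under 4 ways of scaling the libraries, KrasT left and MycT right. Dotted lines give the median change of all genes under each scaling; the sum of 1000000 moves points and median together to the right, and Sesn1 in KrasT stays above 2 under all 4.

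Whether the doxycycline change differs between the models was tested by the interaction term of the joint limma fit, given as the MycT change minus the KrasT change. None of the 9 passed, where 0.24% of all 12073 genes did, and 3 of the 9 and 2406 of all genes had an unadjusted p under 0.05. These 3 were Phlda3, Ccng1 and Trp53inp1, with differences of 2.86 ± 0.999, 1.83 ± 0.54 and 1.55 ± 0.57 (SE) and limma adjusted p of 0.166, 0.122 and 0.185. Ccng1 was the only 1 of the 9 whose groups did not overlap in either model and went opposite ways, 0.91 in MycT and -0.91 in KrasT. Without MycT doxycycline replicate 1, the tumour with the highest muscle marker sum, its MycT change was 0.41. In FPKM as deposited Mdm2 was lower and Sesn1 higher in doxycycline tumours of both models, with differences of 0.47 ± 0.40 and -1.61 ± 0.72 (SE, limma adjusted p = 0.548 and 0.255). The difference for Sesn1 passed without KrasT untreated replicate 1 (-2.14, limma adjusted p = 0.0294). Trp53 (-1.16 ± 0.69), Sesn2 (1.16 ± 0.66), Eda2r (-0.47 ± 0.82) and Zmat3 (0.27 ± 0.62) had limma adjusted p of 0.357 to 0.848.

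**Figure D3:**
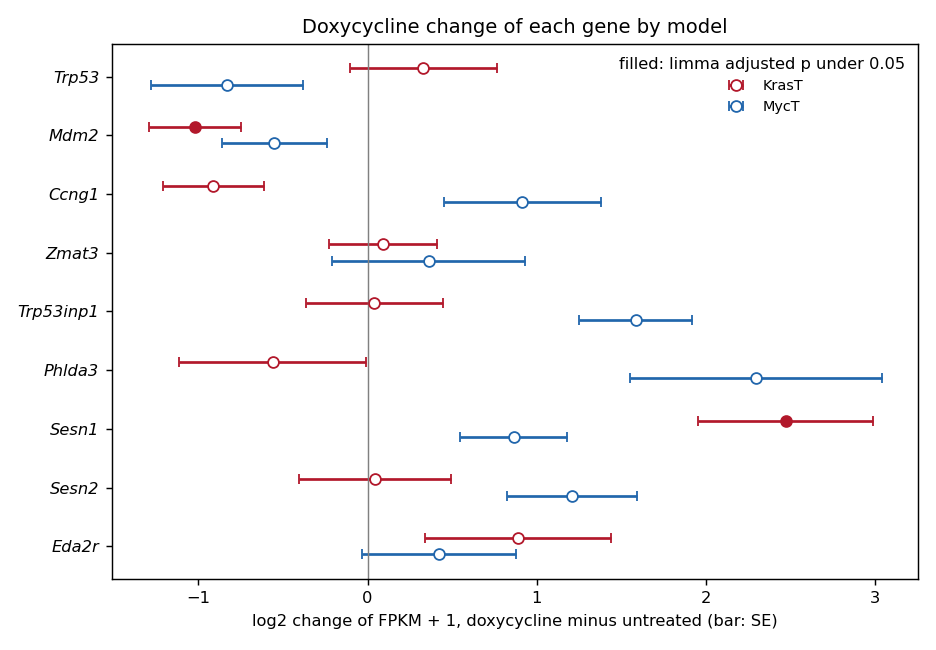
Log2 change of FPKM + 1, doxycycline minus untreated, of each gene in KrasT (red) and MycT (blue), with bars of 1 SE. Filled points passed limma at an adjusted p of 0.05: Mdm2 at -1.02 and Sesn1 at 2.47, both in KrasT.

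The order of the levels was nearly the same in both doxycycline groups, where only Trp53 and Ccng1, whose values overlap, changed places. Phlda3 was highest in the KrasT and MycT doxycycline groups, at 53.1 ± 7.61 (SD, n = 3) and 55.5 ± 13.4 FPKM (SD, n = 2), and highest in untreated KrasT tumours at 98.0 ± 81.7 FPKM (SD, n = 3). In untreated MycT tumours Trp53 was highest at 48.1 ± 22.9 FPKM, and Phlda3 had rank 4 at 13.3 ± 12.3 FPKM (SD, n = 2 each). Mdm2 had rank 5 in both doxycycline groups, at 16.8 ± 0.568 (KrasT, n = 3) and 15.7 ± 1.46 FPKM (MycT, n = 2), below Sesn1 without overlap. In untreated tumours it had rank 3 in KrasT, at 36.0 ± 10.01 FPKM, and rank 2 in MycT, at 23.5 ± 0.460 FPKM, above Sesn1. Zmat3, Eda2r and Sesn2 held the lowest 3 places in 3 of the 4 groups and overlapped with each other there. In untreated MycT tumours Trp53inp1 came below Zmat3, at 3.24 ± 0.598 against 3.41 ± 2.72 FPKM (SD, n = 2 each), with overlap.

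Other genes that p53 is known to activate moved in both directions in KrasT tumours. Of 40 on a list of such targets 37 were tested, 5 rose and 3 fell, set beside 8.46% of all genes higher and 8.25% lower. Their median change was -0.39, against -0.10 for all genes. A sum of 1000000 gave 6 rises and 0 falls, set beside 2558 higher and 232 lower of all 12696 genes. Library weights gave 6 rises and 12 falls. Without single libraries the count of 8 became 0 (without doxycycline replicate 3 or untreated replicates 2 or 3), 1 and 2 (doxycycline replicates 1 and 2) or 15 (untreated replicate 1). The share of all genes called in these fits, or with library weights, is not given here.

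The largest rises were of Pltp, Steap3 and Ephx1. Pltp, which moves phospholipids between lipoproteins, was at 635, 89.3 and 290 FPKM in doxycycline tumours, against 10.2, 6.08 and 5.34 FPKM in untreated tumours (log2 change 5.005 ± 0.68 SE, limma adjusted p = 0.0103). Steap3, a metal reductase of iron uptake, was at 80.0, 20.7 and 32.1 FPKM in doxycycline tumours, against 4.65, 0.786 and 0.606 FPKM in untreated tumours (3.94 ± 0.65 SE, limma adjusted p = 0.0160). Ephx1, an epoxide hydrolase of xenobiotic metabolism, was at 71.2, 76.5 and 116 FPKM in doxycycline tumours, against 34.3, 18.9 and 5.43 FPKM in untreated tumours (2.39 ± 0.61 SE, limma adjusted p = 0.0409). All 3 genes were free of overlap, and Pltp and Steap3 peaked in doxycycline replicate 1, where the sums of fibroblast (9199 FPKM), macrophage (3956 FPKM), adipocyte (2761 FPKM), islet (7218 FPKM) and endothelial markers (136 FPKM) were also the highest of the doxycycline group and that of epithelial markers (278 FPKM) the lowest; their part in these rises was not tested. The other rises were of the death receptor gene Fas (1.93) and the phosphatase gene Ptp4a3 (1.60), and Fas did not pass in the joint fit (limma adjusted p = 0.0817).

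The falls were of Tnfrsf10b, Ddit4 and Aen, and none of these calls held under a sum of 1000000. Tnfrsf10b, the receptor for the death ligand TRAIL, was at 3.26, 3.83 and 3.93 FPKM in doxycycline tumours, against 10.6, 24.6 and 17.6 FPKM in untreated tumours (log2 change -1.92 ± 0.34 SE, limma adjusted p = 0.0177). Ddit4, a stress-induced inhibitor of mTORC1, was at 54.3, 30.9 and 26.8 FPKM in doxycycline tumours, against 72.3, 126 and 145 FPKM in untreated tumours (-1.60 ± 0.38 SE, limma adjusted p = 0.0349). Aen, a nuclease of p53-dependent apoptosis, was at 12.2, 10.6 and 10.2 FPKM in doxycycline tumours, against 25.2, 23.5 and 22.3 FPKM in untreated tumours (-1.04 ± 0.22 SE, limma adjusted p = 0.0268). Replicates of Aen lay close together on both sides, and no group of the 3 genes overlapped its counterpart.

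In MycT tumours 38 of the 40 targets were tested and 0 passed limma, set beside 0.039% of all genes. At an unadjusted p under 0.05 there were 12, set beside 4284 of all 12834 genes. Their median change was 0.58, against 0.04 for all genes. In the joint fit 4 of 37 were higher and 3 lower, set beside 8.11% of all genes higher and 12.3% lower. The targets of smallest p were Abhd4, Ephx1 and Rps27l. Abhd4, a lipase, was at 26.3 and 32.9 FPKM in doxycycline tumours, against 7.98 and 7.65 FPKM in untreated tumours (log2 change 1.79 ± 0.32 SE, limma adjusted p = 0.0675, joint fit 0.0145). Ephx1 was at 104 and 51.7 FPKM in doxycycline tumours, against 14.9 and 13.3 FPKM in untreated tumours (2.30 ± 0.44 SE, limma adjusted p = 0.0684, joint fit 0.0463). It was thus high in doxycycline tumours of both models. Rps27l, a ribosomal protein-like gene, was at 482 and 389 FPKM in doxycycline tumours, against 1408 and 3407 FPKM in untreated tumours (-2.34 ± 0.52 SE, limma adjusted p = 0.0752, joint fit 0.0333). The share of FPKM held by ribosomal protein genes was 21.8% to 22.2% in doxycycline and 47.0% to 49.6% in untreated MycT tumours, and its part in the Rps27l value was not tested.

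**Figure D4:**
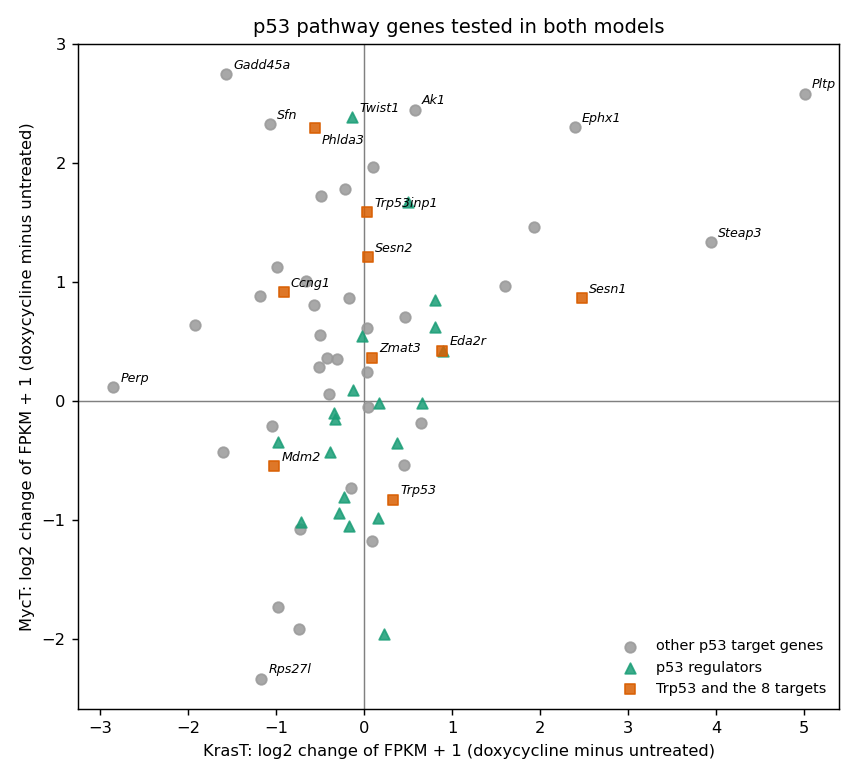
Log2 change of FPKM + 1, doxycycline minus untreated, in KrasT (x axis) and MycT (y axis) for Trp53 and the 8 targets (squares), other p53 targets (circles) and p53 regulators (triangles) tested in both models. Pltp, Steap3, Ephx1 and Sesn1 lie at the upper right, with KrasT changes of 5.005, 3.94, 2.39 and 2.47; Phlda3 lies at 2.30 in MycT and -0.56 in KrasT.

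Genes that act on p53 itself gave no call in either model. Of 22 such regulators 21 were tested in KrasT and 21 in MycT, and 0 passed limma, set beside 16.7% and 0.039% of all genes. At an unadjusted p under 0.05 there were 4 in KrasT and 7 in MycT, set beside 4311 of all 12696 and 4284 of all 12834 genes. The joint fit called 0 of 20 in KrasT, set beside 17.0% of all genes, and 2 higher and 2 lower of 20 in MycT, a share at its background of 20.4% (8.11% higher and 12.3% lower). In KrasT the smallest p were those of Rchy1 (-0.98), Smyd2 (-0.72) and Setd7 (0.81), a ubiquitin ligase and a pair of lysine methyltransferases that act on p53, with limma adjusted p of 0.0586 to 0.0894. In MycT they were those of Chek1 (-2.44), Chek2 (-1.96) and Twist1 (2.39), with limma adjusted p of 0.0638 to 0.0807. Chek2, a checkpoint kinase, was at 3.45 and 3.02 FPKM in MycT doxycycline tumours, against 11.6 and 20.6 FPKM in untreated tumours, and Chek1, its partner kinase, at 0.297 and 0.913 FPKM against 8.83 and 6.45 FPKM. In MycT both kinases were low where the mitotic markers were low. Mitotic markers were also lower in KrasT doxycycline tumours, where both kinases overlapped between groups. Chek2 was at 2.57, 2.98 and 3.39 FPKM in KrasT doxycycline tumours, against 5.12, 1.96 and 1.15 FPKM in untreated tumours. Chek1 was at 0.572, 0.732 and 0.552 FPKM against 1.44, 0.759 and 0.612 FPKM. At these low values Chek1 did not pass the filter in KrasT and was not tested there. The part of dividing cells in these values was not tested.

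Mdm4, the inhibitory partner of Mdm2, was at 6.29, 9.92 and 9.18 FPKM in KrasT doxycycline tumours, against 4.10, 2.80 and 5.46 FPKM in untreated tumours. It was higher in every doxycycline tumour where Mdm2 was lower, but did not pass (log2 change 0.90 ± 0.32 SE, limma adjusted p = 0.0958). Cdkn2a, the locus of the Mdm2 inhibitor Arf and of p16, was at 144 and 35.0 FPKM in MycT doxycycline tumours, against 4.31 and 301 FPKM in untreated tumours. These untreated MycT tumours thus stood far apart in the gene, and in KrasT it was at 14.96, 15.8 and 41.0 FPKM in doxycycline tumours, against 20.3, 10.9 and 7.22 FPKM in untreated tumours. The values do not separate the transcripts of Arf and p16.

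Of 13 close relatives of the 9 genes, 9 were tested in KrasT and 10 in MycT; 1 fell in KrasT, set beside 8.25% of all genes, and 0 passed in the MycT fit, set beside 0.039%. At an unadjusted p under 0.05 there were 3 in KrasT and 1 in MycT, set beside 4311 of all 12696 and 4284 of all 12834 genes. The joint fit called 1 of 9 in KrasT and 1 of 9 in MycT, set beside 17.0% and 20.4% of all genes. Ccng2, which codes for cyclin G2, fell in KrasT, at 18.1, 23.9 and 19.3 FPKM in doxycycline tumours, against 77.2, 49.7 and 43.2 FPKM in untreated tumours (log2 change -1.39 ± 0.29 SE, limma adjusted p = 0.0254). Cyclin G1 and G2 genes were thus both lower in every KrasT doxycycline tumour. Trp53inp2, a regulator of autophagy, was at 25.2 and 20.7 FPKM in MycT doxycycline tumours, against 4.41 and 6.12 FPKM in untreated tumours (1.94 ± 0.35 SE, limma adjusted p = 0.0666, joint fit 0.00967). Like Trp53inp1 it passed in the joint fit and not in the MycT fit. Sesn3, the remaining sestrin, had log2 changes of -0.85 in MycT and -0.13 in KrasT (limma adjusted p = 0.194 and 0.848).

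Genes whose values over the 10 libraries lay nearest to those of Trp53, by root mean square difference of centred log2(FPKM + 1), were Ipo4, Aldh18a1, Dnajc11, Yars and Pecr. Their differences were 0.220 to 0.277 among 7457 candidates, whose median was 0.832. Nearest to Mdm2 were Tmem55a, Tiprl, Eif4g2, Tada1 and Ube2e3, at 0.0997 to 0.138 against a median of 0.687. None of these 10 genes is on the lists of p53 targets or regulators used here. These lists hold 40 and 22 genes, few beside the 7457 candidates, so their absence says nothing about the pathway.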

How the data were processed

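Values are FPKM as the authors deposited them, in 2 tables with 1 column per library. The submitters' processing notes name cutadapt, TopHat and the mm9 build; program, annotation and strand setting behind FPKM were not given in the sources used here. Each table has 23951 rows, of which 27 with dates in place of symbols were left out. Columns were matched by animal number; 1 untreated MycT column matches no label and was used without a replicate number. No value column was set aside.

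Genes at 1 FPKM or more in at least 3 KrasT or 2 MycT libraries were tested on log2(FPKM + 1) by two-sided limma 3.58.1 (R 4.3.3, eBayes, trended prior), with Benjamini-Hochberg adjustment over all genes and calls at 0.05. The difference between models was the interaction of 1 fit over both tables, whose levels were not scaled to each other. Exact permutation could reach 0.1 at best with 3 against 3 and 0.333 with 2 against 2. Steps were tested on simulated data.

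The 9 genes and the lists were chosen with earlier results of these data known. Named list genes are up to 3 called rises and 3 called falls per model, or the 3 of smallest p; Fas and Ptp4a3 were added after their values were seen, as were the relatives described. Candidates for likeness had a mean of at least 5 FPKM in both tables. Alternatives were a pseudocount of 0.1, no filter, a mean of at least 5 FPKM, median-ratio scaling, library weights, quantile normalization, a spread without a trend, a robust spread, a joint fit, fits without high-Rn45s libraries and without each library, and libraries each summing to 1000000 (added after seeing the data). Promoters were searched in Python 3.11.15, and figures drawn with matplotlib 3.10.9.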

Additional observations from a re-analysis of the deposited data

How the results depend on the processing

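The KrasT calls among the 9 genes, 2 in FPKM as deposited, became 1 with no filter, median-ratio scaling, quantile normalization, a sum of 1000000 or spread without a trend (Sesn1 in each), 4 with library weights and 0 without the high-Rn45s library. The MycT calls, 0 in the MycT fit, became 1 in the joint fit and 5 with a sum of 1000000. For the other targets, 8 KrasT calls became 18 with library weights and 1 without the high-Rn45s library, and 0 MycT calls became 7 in the joint fit and 16 with a sum of 1000000. For the regulators, 0 KrasT calls became 5 with a sum of 1000000 and 7 with library weights, and 0 MycT calls became 4 in the joint fit and 5 with a sum of 1000000. Leaving out 1 library gave 0 to 3 of the 9 in KrasT, 0 to 1 in MycT and 0 to 1 for the difference, 0 to 15 and 0 to 5 other targets, and 0 to 2 and 0 regulators, in KrasT and MycT. In MycT each such fit leaves a group of 1 tumour, assumed to vary like the other group. Shares of all genes passing with library weights or with libraries left out are not given here, so those counts have no background. A sum of 1000000 gave 2790 calls among all 12696 genes in KrasT and 4060 among all 12834 in MycT.

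None of the changes that turned round had been called. A sum of 1000000, which moves all genes upward together, gave positive changes for Trp53 (0.38) and Mdm2 (0.64) in MycT and Phlda3 in KrasT (0.13), which relative to the median of all genes kept their sign (-0.70, -0.44 and -0.40). Quantile normalization turned Zmat3 (-0.21) and Sesn2 (-0.39) in KrasT. Library weights turned Trp53inp1 (-0.21), Phlda3 (0.019) and Sesn2 (-0.41), and leaving out the high-Rn45s library Zmat3 (-0.13), Trp53inp1 (-0.042) and Sesn2 (-0.28), all in KrasT. Without single libraries the KrasT change ran from -0.10 to 0.77 for Trp53, -0.13 to 0.34 for Zmat3, -0.34 to 0.41 for Trp53inp1, -1.05 to 0.078 for Phlda3 and -0.30 to 0.40 for Sesn2. The MycT change ran from -0.31 to 1.04 for Zmat3 and -0.0745 to 0.92 for Eda2r, and the difference from -0.40 to 0.94 for Zmat3 and -1.07 to 0.0295 for Eda2r. The cause of these turns was not tested.

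In KrasT the share of higher genes among all calls was 50.6% in FPKM as deposited, 62.1% under median-ratio scaling (1150 higher, 701 lower) and 91.7% with a sum of 1000000, with the median of all genes moved by 0.11 and 0.63. Of all 12696 genes KrasT calls were 2121 in FPKM as deposited, and 1851, 2790 and 1078 under median-ratio, sum of 1000000 and quantile scaling. Of all 12834 genes MycT calls were 5, 5, 4060 and 6 in the same order. No paired analysis was possible because animal numbers in the labels are all different and none is shared between groups. With 2 or 3 tumours a group and unknown read depth, a gene that did not pass is not shown to be unchanged.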
